A study of Mus musculus with 6 samples.

Results

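The transcripts examined here encode 10 proteins of the intercalated disc, the junction that joins heart muscle cells end to end. They were taken by gene symbol from a table of 21989 symbols: the connexins Gja1, Gja5 and Gjc1, the desmosomal plaque genes Pkp2, Dsp and Jup, the desmosomal cadherins Dsg2 and Dsc2, the classical cadherin Cdh2, and the alpha-catenin Ctnna3. All 10 symbols were found, and all 10 had a mean of at least 1 FPKM (a read level corrected for gene length and library size) and were tested. Polyadenylated RNA of frozen tissue labelled left ventricle was sequenced from male SPF-grade C57BL/6 mice in 2 groups of 3 libraries. The ISO group received ISO at 10 mg/kg/d under the skin for 3 weeks and is labelled as a heart failure model. The saline group, labelled sham, received normal saline in the same volume. ISO is the usual abbreviation of isoproterenol, an agonist of beta-adrenergic receptors. The age of the mice is not given, and no library is tied to a named animal, so every p-value measures the spread between these libraries. All pairs within a group differed by more than sampling noise, least for ISO 1 and ISO 2 (a median chi-square 4.45 times that of sampling), and each library was counted as 1 sample. Both groups are wild type as far as the labels say.

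The intercalated disc holds gap junctions, desmosomes and adherens junctions, which in the heart partly merge into a mixed structure called the area composita. Connexins form the gap junction channels that pass current from cell to cell: connexin 43 (Gja1) in working muscle, connexin 40 (Gja5) in atrial muscle, fast conduction tissue and arterial endothelium, and connexin 45 (Gjc1) in the nodes and in developing heart. In desmosomes the cadherins desmoglein 2 and desmocollin 2 bridge the gap between cells. Inside the cell, plakoglobin and plakophilin 2 tie them to desmoplakin, which holds the desmin filaments. Inherited loss of several of these desmosomal genes causes arrhythmogenic cardiomyopathy.

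Stretches upstream of 3 of the genes are shown because Gja1, Gja5 and Dsp are the members whose patterns across libraries are followed furthest below. They are the 250 bases before the annotated start, on the plus strand of GRCm38.p6, from RefSeq: Gja1 at chr10:56377050-56377299, Gja5 at chr3:97032152-97032401 and Dsp at chr13:38151044-38151293. Capitals mark every match, on either strand, to 5 short motifs: TGANTCA (AP-1), TGACG (the core of the cAMP response element), AAGTG (the NKX2-5 core), GGTGT (a T-box core) and TATAA (the TATA box).
Gja1: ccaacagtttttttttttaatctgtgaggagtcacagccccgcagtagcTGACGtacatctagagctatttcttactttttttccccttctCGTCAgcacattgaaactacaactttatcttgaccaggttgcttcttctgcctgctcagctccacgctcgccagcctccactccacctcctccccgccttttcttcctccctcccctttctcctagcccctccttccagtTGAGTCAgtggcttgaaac
Gja5: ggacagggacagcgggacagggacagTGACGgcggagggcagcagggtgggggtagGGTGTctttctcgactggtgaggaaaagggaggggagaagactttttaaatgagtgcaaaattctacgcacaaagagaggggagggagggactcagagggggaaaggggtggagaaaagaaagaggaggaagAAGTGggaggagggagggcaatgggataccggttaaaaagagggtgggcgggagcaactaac
Dsp: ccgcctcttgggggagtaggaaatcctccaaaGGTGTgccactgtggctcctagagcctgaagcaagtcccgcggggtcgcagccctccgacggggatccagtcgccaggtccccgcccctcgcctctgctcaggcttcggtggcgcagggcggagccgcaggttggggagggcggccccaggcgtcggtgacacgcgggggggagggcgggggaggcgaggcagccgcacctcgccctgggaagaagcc

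The Gja1 window held 1 AP-1 match, whose first base lies at -19 from the start, and 2 cores of the cAMP response element, at -201 and -159. The Gja5 window held 1 such core at -224, a T-box core at -194 and an NKX2-5 core at -62. The Dsp window, at 72.4% G and C, held a T-box core at -218. Among 32851 RefSeq windows of the same length, 6.75% held TGANTCA, 17.8% TGACG, 40.7% AAGTG, 36.2% GGTGT and 22.8% TATAA, and matches to different motifs may overlap. Matches of this kind describe the letters, and the FPKM values do not measure binding or promoter activity. Windows were found for 5 of the 10 genes (Gja1, Gja5, Dsp, Jup and Ctnna3).

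Saline 3 stood apart from the other libraries, and this bears on every value below. It had the fewest reads, 2776152 of a range that reached 9862363 in saline 1, and over the genes tested it correlated with the others at a Pearson r of 0.788 to 0.830. Genes longer than 4000 bases took 34.0% of its reads and 41.3% to 44.6% of the reads in the other 5 libraries. The light chain markers went against the labelled chamber, left ventricle, in 5 of the 6 libraries. Myl2, the ventricular light chain, was 1.22 times Myl7, the atrial light chain, in saline 3, and 0.0168 to 0.172 times Myl7 in the other 5 libraries. Irx4, a transcription factor of ventricular muscle, was above 0 in all 6 libraries, at 0.778 to 10.3 FPKM. Its lowest value, in ISO 3, stood for 17 reads. In bulk tissue, fewer cells of a type and less RNA per cell cannot be told apart.

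Levels of the 10 genes spanned from 1.11 FPKM (Ctnna3 in ISO 2) to 80.2 FPKM (Pkp2 in saline 2). By the mean over 6 libraries, Pkp2 was highest at 64.1 FPKM and Gja1 next at 39.7 FPKM, and this order held in all 6 libraries, as did Gja1 above Dsg2. Dsg2, Jup, Dsp, Dsc2 and Gja5 followed at 22.3, 21.9, 21.7, 16.5 and 15.5 FPKM, and each of these neighbours kept its order in only 3 or 4 of 6 libraries. Gja5 was above Gjc1 (8.29 FPKM) in all 6 libraries. Gjc1 was above Cdh2 (3.48 FPKM) in 5 of 6, and Cdh2 above Ctnna3 (2.74 FPKM) in 4 of 6. FPKM is per length, so these levels can be set side by side within a library. Gene lengths ran from 2891 bases (Pkp2) to 9964 bases (Cdh2). Division by length does not remove the lower share of reads on long genes in saline 3.

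**Figure D1:**
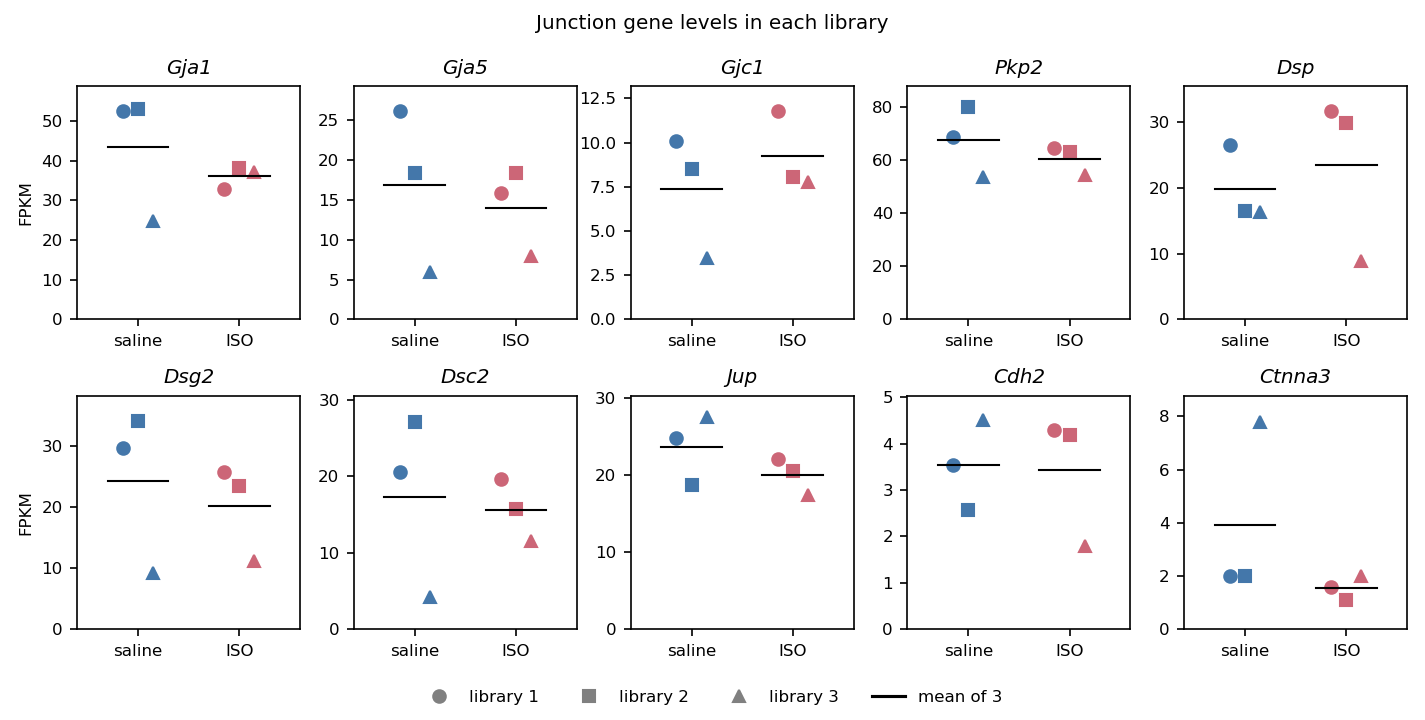
Level of each of the 10 junction genes (vertical axis, FPKM, from 0) in the 3 saline and 3 ISO libraries. Symbols mark the library number within a group, which does not pair libraries, and bars the mean of 3. Saline 3 (blue triangle) is the lowest library for 6 genes and the highest for 3, and the groups overlap for all 10.

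No junction gene differed between ISO and saline beyond the spread of the libraries. Of the 10 genes, 0 passed an adjusted p of 0.05 with limma, where 0% of all 12269 genes tested did, and their adjusted p ran from 0.699 to 0.9502. At an unadjusted p under 0.05 the count was also 0 of 10, against 6.31% of all genes. The saline and ISO libraries overlapped for all 10, whereas groups did not overlap for 16.5% of all genes. On the log2(FPKM + 1) scale 3 genes were higher in ISO and 7 lower, with a median log2 fold change of -0.13. Over all genes that median was 0.20, with 68.1% higher and 31.9% lower, and 9 of the 10 junction genes lay below it. That count was 4 of 10 without ISO 3 and 6 of 10 without saline 1, and without ISO 3 the median of the 10 genes was 0.21. The count was 1 higher and 9 lower under median-of-ratios scaling, where the median of all genes was 0.0055, and 4 higher and 6 lower with values rescaled to a common sum.

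Gja1 (chromosome 10, 56377300 to 56390419) encodes connexin 43, the main gap junction protein of ventricular muscle. Saline 1 to 3 gave 52.4, 53.1 and 24.8 FPKM, and ISO 1 to 3 gave 32.8, 38.2 and 37.1 FPKM. Saline 1 and 2 were above every ISO library, and saline 3 was below every one of them. The saline mean was 43.4 ± 16.1 FPKM and the ISO mean 36.0 ± 2.86 FPKM (SD, n = 3 each), with a log2 fold change of -0.19 (95% interval -0.96 to 0.59, limma adjusted p = 0.821). Without saline 3 the log2 fold change was -0.54, with an unadjusted p = 0.0145 and an adjusted p = 0.403 in limma, and 10.2% of all genes had an unadjusted p under 0.05 in that fit. It was -0.0079 without saline 2 and -0.016 without saline 1. With sample quality weights, which gave saline 3 a weight of 0.0772, the limma adjusted p = 0.0722 was the lowest of any junction gene in any fit. The weights were estimated from these same libraries. They were 3.08 and 1.04 for saline 1 and 2, and 1.63, 5.5 and 0.449 for ISO 1 to 3, so ISO 2 and saline 1 counted most. With those weights 2 of the 10 genes, Gja1 and Ctnna3, had an unadjusted p under 0.05 in limma, against 26% of all genes.

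Gja5 (chromosome 3, 97032402 to 97053634), the connexin of atrial muscle and arteries, was at 26.1, 18.4 and 6.00 FPKM in saline and at 15.9, 18.4 and 7.95 FPKM in ISO. The third library was the lowest of each group. Its 95% counting interval of 4.50 to 7.85 FPKM in saline 3, from 53 reads, lay below that of saline 2, 16.6 to 20.4 FPKM, so counting error does not span the gap. The log2 fold change was -0.11 (95% interval -1.40 to 1.17, limma adjusted p = 0.938), 0.22 without ISO 3 and -0.68 without saline 3. Atrial muscle markers, 6 of 6 detected, summed to 10442 FPKM in saline 3 and to 15307 FPKM in ISO 3, the lowest of each group. The other 4 libraries stood at 18069 to 26540 FPKM. Myl7 was the largest part of each sum. All 6 markers were lowest of the saline group in saline 3. In ISO 3 Myl7, Myl4 and Bmp10 were lowest of the ISO group, and Sln lay between the others. Nppa (3963 FPKM) and Dkk3 (176 FPKM) were highest of the ISO group there. Endothelial markers, 8 of 8 detected, summed to 73.8 FPKM in saline 3 and to 282 to 417 FPKM in the other 5 libraries, and Hey1, an arterial marker, was at 0 in saline 3. The part of either cell type in the Gja5 level was not tested. Exons of Gja5 overlap an exon of Gpr89 on the other strand by up to 165 bases, and strand use in the counting is not given, so reads there cannot be told apart.

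Gjc1 (chromosome 11, 102799477 to 102819686), connexin 45, was at 10.1, 8.50 and 3.46 FPKM in saline and at 11.8, 8.07 and 7.79 FPKM in ISO. Saline 3 was the lowest and ISO 1 the highest, and the other 4 libraries lay between 7.79 and 10.1 FPKM. Its log2 fold change of 0.37 was the highest of the 10 genes (95% interval -0.55 to 1.29, limma adjusted p = 0.728). Without saline 3 it was -0.029. Saline 3 held 36 reads of Gjc1.

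Pkp2 (chromosome 16, 16213345 to 16272712) encodes plakophilin 2, the armadillo protein that links desmosomal cadherins to desmoplakin. It varied least of the 10 genes, by 1.49 times from lowest to highest library. Its levels were 68.8, 80.2 and 53.7 FPKM in saline and 64.6, 63.0 and 54.3 FPKM in ISO, with a log2 fold change of -0.14 (95% interval -0.69 to 0.41, limma adjusted p = 0.815). On this scale the interval runs from 0.620 to 1.33 times the saline level, the narrowest interval of the 10 genes.

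Jup (chromosome 11, 100368856 to 100397839) encodes plakoglobin, which sits in both desmosomes and adherens junctions. It was at 24.8, 18.8 and 27.6 FPKM in saline and at 22.1, 20.6 and 17.4 FPKM in ISO. Saline 3 was the highest library, unlike for the connexins. The log2 fold change was -0.22 (95% interval -0.79 to 0.34, limma adjusted p = 0.732). It stayed below 0 in all 16 alternative fits, from -0.45 to -0.10, without passing the threshold in any of them.

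Dsp (chromosome 13, 38151294 to 38198577) encodes desmoplakin, the anchor for desmin. It was at 26.6, 16.5 and 16.4 FPKM in saline and at 31.8, 30.0 and 8.85 FPKM in ISO. ISO 1 and 2 were above every saline library and ISO 3 was below every one. The means of 19.8 ± 5.83 and 23.5 ± 12.8 FPKM (SD, n = 3 each) gave a log2 fold change of 0.084 (95% interval -1.08 to 1.24, limma adjusted p = 0.9502). It was 0.65 without ISO 3 (limma unadjusted p = 0.0743, adjusted p = 0.863) and -0.22 without ISO 1, so the library left out sets its sign. ISO 3 also had the lowest sum of the 10 heart muscle reference genes, 12010 FPKM against 18914 and 18380 FPKM in the other ISO libraries. The part of muscle content in the Dsp level was not tested. An exon of Dsp overlaps the opposite-strand transcript Gm10129 by up to 499 bases.

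The desmosomal cadherins Dsg2 and Dsc2 lie in the cadherin cluster of chromosome 18 (20558074 to 20604526 and 20030633 to 20059554), and both were lowest in saline 3. Dsg2 was at 29.7, 34.2 and 9.30 FPKM in saline and at 25.8, 23.4 and 11.2 FPKM in ISO. Dsc2 was at 20.6, 27.1 and 4.25 FPKM in saline and at 19.7, 15.7 and 11.6 FPKM in ISO. For both, saline 1 and 2 were above every ISO library and saline 3 was below every one. Dsg2 had a log2 fold change of -0.16 (95% interval -1.41 to 1.10, limma adjusted p = 0.914) and Dsc2 of 0.15 (95% interval -1.30 to 1.597, limma adjusted p = 0.928). Without saline 3 they were -0.71 (adjusted p = 0.547) and -0.60 (adjusted p = 0.497) in limma. Saline 3 was 0.178 times the mean of saline 1 and 2 for Dsc2, where 4.19% of all genes had a lower log2 difference, and 0.291 times for Dsg2. Dsg2 exons overlap the antisense transcript Gm16090 by up to 330 bases.

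Cdh2 (chromosome 18, 16588877 to 16809246), N-cadherin of the adherens junction, was at 3.53, 2.56 and 4.52 FPKM in saline and at 4.30, 4.19 and 1.79 FPKM in ISO. Saline 3 was its highest library and ISO 3 its lowest. The log2 fold change was -0.073 (95% interval -0.90 to 0.75, limma adjusted p = 0.938). Of the 10 genes Cdh2 had the longest transcript model by the table's own scaling, 9964 bases, so its low FPKM still stood for 100 to 347 reads a library.

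Ctnna3 (chromosome 10, 63430098 to 65003667) encodes alpha-T-catenin, which binds plakophilin 2 and ties the area composita to actin. It was at 1.99, 2.01 and 7.78 FPKM in saline and at 1.58, 1.11 and 1.99 FPKM in ISO. Saline 3 was 3.89 times the mean of saline 1 and 2, and the other 5 libraries lay between 1.11 and 2.01 FPKM. The counting intervals in saline 3 (6.23 to 9.60 FPKM, 87 reads) and saline 1 (1.58 to 2.48 FPKM, 79 reads) did not meet. Ctnna3 had the log2 fold change farthest from 0 of the 10 genes, -0.76 (95% interval -1.86 to 0.34, limma adjusted p = 0.699), and -0.24 without saline 3. ISO 2 held 23 reads.

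**Figure D2:**
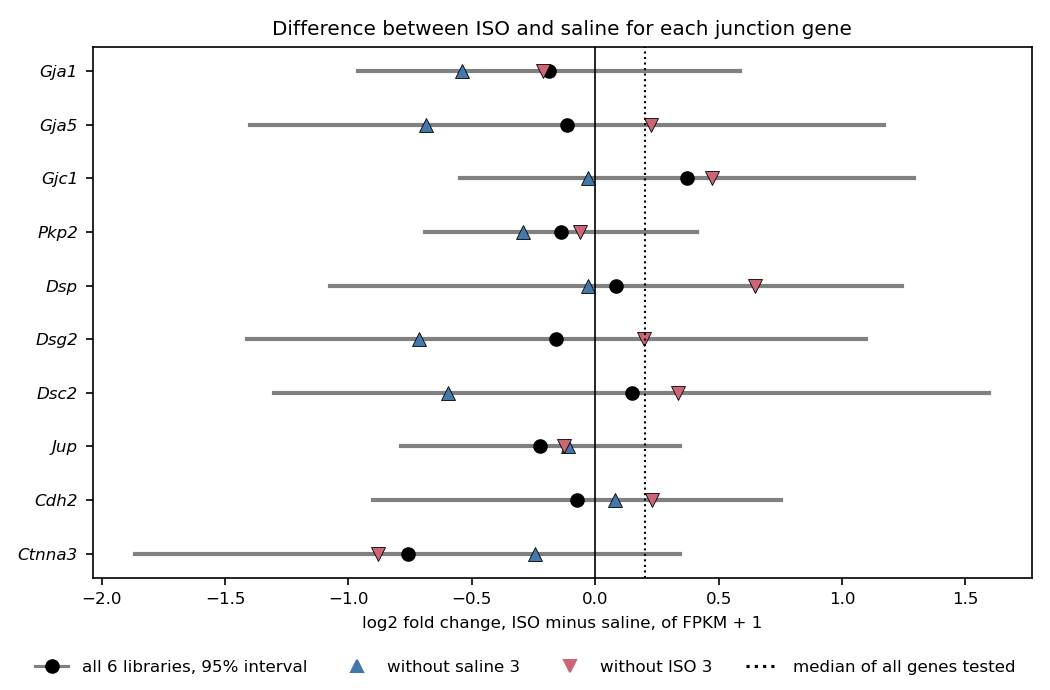
Log2 fold change of each junction gene (horizontal axis, ISO minus saline, of FPKM + 1) with all 6 libraries (black, grey line the 95% interval of limma), without saline 3 (blue) and without ISO 3 (red). All 10 intervals include 0. Leaving out saline 3 moves Gja1, Gja5, Dsg2 and Dsc2 to between -0.54 and -0.71, and leaving out ISO 3 moves Dsp to 0.65; the dotted line is the median of all genes, 0.20.

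Leaving out saline 3 changed which junction genes overlapped. With saline 1 and 2 against the 3 ISO libraries, 9 of the 10 genes were lower in ISO, where 41.1% of all genes were lower and 58.9% higher. For 5 of them (Gja1, Gja5, Pkp2, Dsg2 and Dsc2) the groups no longer overlapped, with ISO lower, against 9.67% of all genes in that direction. Saline 3 was the lowest of all libraries for each of these 5. Leaving it out could therefore part their groups in that direction only, and the share of all genes is not limited to such genes. For Gja5 the margin was between 18.45 FPKM in saline 2 and 18.36 FPKM in ISO 2, within counting error. The 95% counting intervals of saline 1 and ISO 1 also met for Pkp2 (65.8 to 72.0 and 61.3 to 68.2 FPKM). They met for Dsc2 as well (19.3 to 22.0 and 18.2 to 21.2 FPKM). Those of the nearest saline and ISO libraries did not meet for Gja1 and Dsg2. None of the 10 genes passed an adjusted p of 0.05 in limma in that fit, where 0% of all genes did. Leaving out ISO 3 gave the other picture, with 6 genes higher and 4 lower, against 65.1% and 34.9% of all genes. Dsp was then higher with no overlap, against 20.1% of all genes in that direction, and Ctnna3 lower with no overlap, against 8.17%. ISO 3 was the lowest of all libraries for Dsp, so here too the direction followed from the library left out. Without ISO 1 the split was 1 higher and 9 lower, and 0 of the 10 genes passed in limma, adjusted or unadjusted, against 0.13% and 5.25% of all genes.

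The junction genes were then set against heart muscle genes of the same library, since the summed level of these differed. The reference was the mean log2(FPKM + 1) of 10 genes of the contractile and calcium apparatus (Tnnt2, Tnni3, Actc1, Myh6, Actn2, Ttn, Ryr2, Pln, Myom1 and Ckm), all 10 of which were lower in ISO by the fitted value, with 0 passing the threshold. Summed, they stood at 26450 to 30102 FPKM in saline and at 12010 to 18914 FPKM in ISO. Relative to this reference 9 of the 10 junction genes were higher in ISO, all but Ctnna3, where 93.6% of all genes were. Their median difference was 0.44, and that of all genes 0.77. Without saline 3 the count was 7 of 10, against 95.8% of all genes, with Gja5 at -0.11, Dsg2 at -0.14, Dsc2 at -0.023 and Ctnna3 at 0.33. Ctnna3 was also above 0 without ISO 1 (0.013) or ISO 2 (0.11). An exact two-sided permutation test of 3 against 3 libraries cannot go below p = 0.1.

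Gjc1 and Cdh2 reached that smallest p, and neither passed after adjustment over the 10 genes (exact permutation, adjusted p = 0.5 for both). On this scale the ISO libraries were all above the saline libraries for these 2 of the 10 genes, and for 33.7% of all genes. Gjc1 lay at -6.06, -6.06 and -7.25 on this log2 scale in saline and at -5.60, -6.00 and -4.95 in ISO. The ISO libraries were all above the saline libraries, by a mean of 0.94. Cdh2 lay at -7.35, -7.48 and -6.94 in saline and at -6.88, -6.80 and -6.61 in ISO, a mean difference of 0.50. With a reference of Actn2, Ttn, Ryr2 and Myom1 alone the difference for Cdh2 was 0.21 and the exact permutation p = 0.8, and for Gjc1 it was 0.66 with p = 0.1. Without saline 3 the Gjc1 difference was 0.54 (exact permutation p = 0.2). Dsp was 0.65 higher (exact permutation p = 0.2) and Gja1 0.38 higher (exact permutation p = 0.6). Against the reference of 4 genes they were 0.37 and 0.097 higher. For Gja1 the difference was 0.032 without saline 3 and -0.024 without ISO 3.

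**Figure D3:**
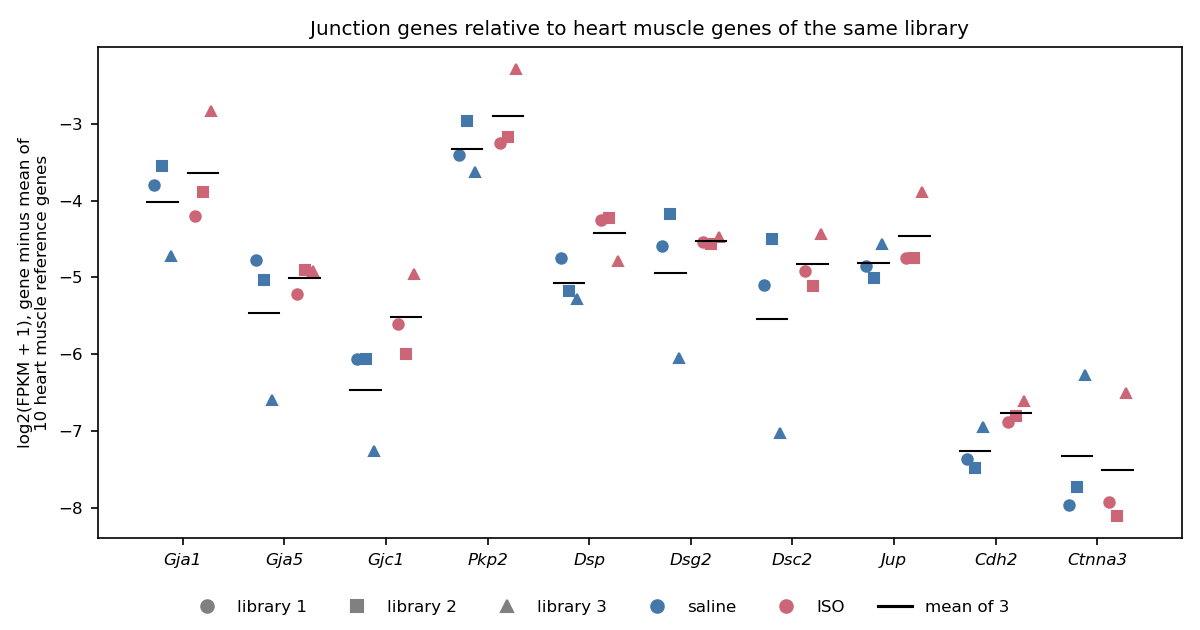
Each junction gene relative to 10 heart muscle genes of the same library (vertical axis, difference of log2(FPKM + 1)), for 3 saline (blue) and 3 ISO (red) libraries, with bars at the mean of 3. The ISO libraries lie above all saline libraries for Gjc1 and Cdh2, by 0.94 and 0.50 on average, and overlap them for the other 8 genes.

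Levels of junction genes were next divided by one another within a library, and differences were tested on log2(FPKM + 1). Of 7 ratios compared, that of Gjc1 to Gja1 separated the groups. It was 0.193, 0.160 and 0.139 in saline and 0.360, 0.211 and 0.210 in ISO, with every ISO library above every saline library. The difference was 0.56 on the log2 scale, with an exact permutation p = 0.1 and an adjusted p = 0.7 over the 7 ratios. Without ISO 1 it was 0.32. How many of all genes separate the groups in their ratio to Gja1 was not computed. Of all genes tested, 19.7% had a lower log2 fold change than Gja1, so most genes were higher in ISO relative to it.

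The other 6 ratios overlapped between the groups, with an adjusted p of 0.817 or 1 by the exact permutation test. Gja5 was 0.242 to 0.499 times Gja1 in saline and 0.214 to 0.484 times in ISO, lowest in saline 3 and ISO 3. Dsp ranged from 0.238 times Gja1 in ISO 3 to 0.970 times in ISO 1. Pkp2 exceeded Dsp in every library, by 2.03 times in ISO 1 and 6.14 times in ISO 3. Dsc2 was 0.457 times Dsg2 in saline 3 and 1.03 times in ISO 3, with the other 4 libraries between 0.671 and 0.794. Ctnna3 was above Cdh2 in saline 3 (1.72 times) and ISO 3 (1.11 times) and below it in the other 4 libraries (0.265 to 0.784 times). Jup to Dsp was likewise highest in those same libraries, at 1.68 and 1.96, against 0.686 to 1.14.

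Saline 3 and ISO 3 held the extreme value of several ratios. The sum of ventricular muscle markers (4 of 4 detected) was highest in saline 3, 13433 FPKM, and lowest in ISO 3, 187 FPKM. The other 4 libraries stood at 693 to 3132 FPKM. Myl2 was the largest part of each sum, and both Myl2 and Myl3 were highest in saline 3 and lowest in ISO 3. Irx4 was also lowest in ISO 3 but highest in saline 1. Hey2 went the other way, lowest in saline 3 (1.14 FPKM) and near its highest level in ISO 3 (5.07 FPKM). Summed atrial markers were the lowest of the group in saline 3 and in ISO 3 alike. The sum over 8 epithelial markers was 263 FPKM in saline 3 and 240 FPKM in ISO 3. In the other 4 libraries it was 28.3 to 69.3 FPKM. Most of the higher sums was Scgb1a1, a secreted protein of airway cells, at 201 and 182 FPKM. Sftpc was also highest in saline 3 and ISO 3, at 14.3 and 5.76 FPKM. The list did not rise as a whole: Krt8 and Krt18 were highest in saline 1, at 18.6 and 41.5 FPKM. Krt8 was lowest in saline 3, at 5.99 FPKM. Epcam, which marks epithelium, was at 8.91 FPKM in saline 3, at 0.173 FPKM in ISO 3 and at 0 in ISO 1. Cdh1, the epithelial cadherin, was highest in ISO 3, at 2.61 FPKM, and lowest in saline 3, at 0.0813 FPKM. Desmosomal genes are also used by epithelia, and the part of such cells in the levels of Dsp, Jup, Pkp2, Dsg2 and Dsc2 was not tested. Fibroblast markers, 6 of 6 detected, summed to 565 to 950 FPKM in saline and to 1337 to 1577 FPKM in ISO.

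**Figure D4:**
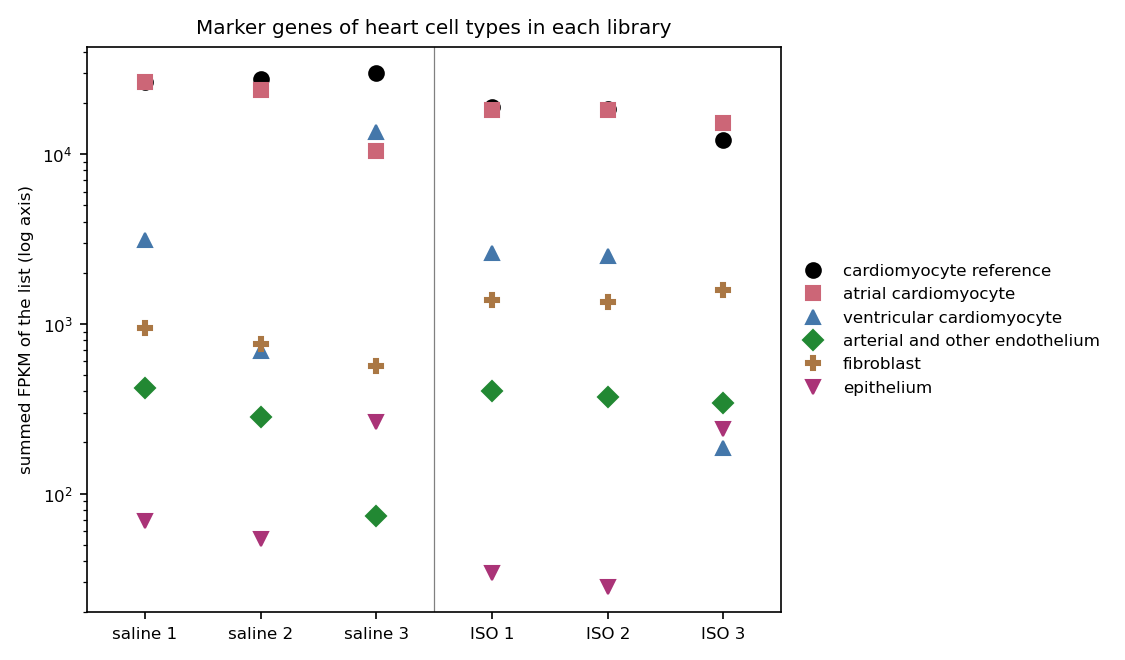
Summed FPKM (vertical log axis) of marker genes of 6 cell types in each library. Saline 3 has the highest ventricular sum (13433 FPKM) and the lowest endothelial sum (73.8 FPKM), ISO 3 the lowest ventricular sum (187 FPKM), and their epithelial sums are 263 and 240 FPKM.

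The wider connexin family was mostly below the filter on low values. Of 17 other connexins 4 were listed at 0 in every library and 3 passed that filter. Gja4, connexin 37 of arterial endothelium, was at 14.6, 14.6 and 14.1 FPKM in saline and at 23.9, 24.2 and 31.6 FPKM in ISO. The groups did not overlap, as for 12.8% of all genes in that direction, and the log2 fold change was 0.82 (SE 0.22, limma unadjusted p = 0.00661, adjusted p = 0.699). Saline 3, low for Gja1, Gja5 and Gjc1, was level with saline 1 and 2 for Gja4. Gja4 passed with sample quality weights (limma adjusted p = 0.0216), where 6.26% of all genes did, and in none of the other fits. Gja3, a connexin known from the lens, was at 7.58, 4.47 and 0.122 FPKM in saline and at 4.33, 5.21 and 3.39 FPKM in ISO. Gjb5, a connexin of skin and placenta, was at 2.202, 2.14 and 0 FPKM in saline and at 3.18, 2.16 and 1.88 FPKM in ISO.

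Proteins that bind or handle connexins were tested for 9 of 9 genes, and 0 passed. All 9 had a fitted value above 0 (median 0.33, against 0.20 for all genes), and 5 of 9 did under median-of-ratios scaling and under quantile normalization. Without saline 3 the count was 7 of 9 and the median 0.14, and without ISO 1 they were 7 of 9 and 0.22. Tjp1, the scaffold ZO-1 that caps gap junction plaques, averaged 12.2 ± 4.49 FPKM over the saline libraries and 16.1 ± 2.03 FPKM over the ISO libraries (SD, n = 3 each). Src, a kinase that phosphorylates connexin 43, was at 3.40, 3.59 and 1.68 FPKM in saline and at 4.21, 10.0 and 9.02 FPKM in ISO, with no overlap (limma unadjusted p = 0.0206, adjusted p = 0.699). Macrophage markers, 6 of 6 detected, summed to 336, 484 and 579 FPKM in saline 1 to 3 and to 743, 1585 and 1467 FPKM in ISO 1 to 3. Like Src they were higher in ISO, but within saline their sum was highest in saline 3, where Src was lowest. Lyz2 was the largest part of the sum in every library. The part of macrophages in the Src level was not tested. Csnk1d, another connexin 43 kinase, was at 21.0 ± 4.91 and 29.0 ± 4.38 FPKM, and Mapre1, a microtubule tip protein that guides connexin delivery, at 12.3 ± 2.88 and 16.8 ± 0.960 FPKM, both with no overlap.

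Adherens junction and filament anchors had 8 of 17 genes higher and 9 lower in ISO (median -0.0078), and 0 passed. Under rescaling to a common sum the split was 12 higher and 5 lower, and under median-of-ratios scaling 5 and 12. Without saline 3 it was 3 higher and 14 lower. Ctnnb1, beta-catenin, averaged 69.4 ± 1.37 FPKM with saline and 97.3 ± 7.34 FPKM with ISO, with no overlap (log2 fold change 0.48, limma unadjusted p = 0.0440, adjusted p = 0.699). Flnc, filamin C, which crosslinks actin at Z-discs and the disc, was at 41.1, 36.6 and 29.5 FPKM in saline and at 18.6, 17.8 and 11.7 FPKM in ISO. Every ISO library was below every saline library, as for 3.72% of all genes in that direction. Its log2 fold change was -1.12 (SE 0.27, limma unadjusted p = 0.00373, adjusted p = 0.699), and it passed with sample quality weights (adjusted p = 0.0150). Pdlim5, a LIM protein of the Z-disc, was at 53.2 ± 10.9 and 35.7 ± 4.51 FPKM with no overlap, and passed with the same weights (limma adjusted p = 0.0437). Nrap, which links the disc to the end of the myofibril, was at 67.1 ± 18.6 and 42.2 ± 13.5 FPKM. Vcl, vinculin, was at 40.8, 34.8 and 8.003 FPKM in saline and at 32.1, 26.7 and 30.7 FPKM in ISO, with saline 3 lowest. Xirp1 was at 25.4 ± 6.76 and 24.7 ± 1.27 FPKM.

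Among 7 ion channel and ankyrin genes of the disc 3 were higher and 4 lower (median -0.0082), and 0 passed; without saline 3 the split was 1 higher and 6 lower. Ank3, ankyrin G, which anchors membrane proteins at the disc, was at 4.61 ± 1.07 and 2.81 ± 0.265 FPKM with no overlap. Ank2, ankyrin B, was at 2.46 ± 0.620 and 1.82 ± 0.394 FPKM.

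Of 8 other genes linked to arrhythmogenic cardiomyopathy 3 were higher and 5 lower (median -0.093), and 0 passed. Tgfb3, a growth factor, was at 14.2, 20.6 and 15.9 FPKM in saline and at 27.9, 27.6 and 27.3 FPKM in ISO, with no overlap (log2 fold change 0.69, limma unadjusted p = 0.0176, adjusted p = 0.699). Of the 16 alternative fits it passed with sample quality weights alone (limma adjusted p = 0.0253). Tmem43, a nuclear envelope protein, was at 21.9, 25.4 and 6.70 FPKM in saline and at 28.4, 25.6 and 28.9 FPKM in ISO, again with saline 3 lowest. Desmosomal genes of stratified epithelium were mostly below the filter, with 3 of 12 tested: Perp at 48.5 ± 14.2 and 53.3 ± 3.10 FPKM, Ppl at 17.4 ± 6.74 and 23.0 ± 2.82 FPKM, and Evpl at 1.35 ± 0.366 and 1.54 ± 0.980 FPKM. Pkp1 was highest in ISO 3, at 2.36 FPKM, and at 0 to 0.231 FPKM in the other libraries.

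The genes whose pattern over the 6 libraries was most like that of 3 junction genes were ranked by Pearson r of log2(FPKM + 1), as a description over 6 points. Gja1 was most like Sync (r 0.992), which encodes an intermediate filament partner of the muscle costamere, then Atad3a (0.982) and Rbm25 (0.976), and 41 genes reached 0.95. Gja5 was most like Csdc2 (0.990), Gpr37l1 (0.989) and Hyal1 (0.986), with 62 genes at 0.95 or more. Dsp was most like Ikbkap (0.995), Lrrc2 (0.994) and Pcdhga4 (0.986), with 31 genes at 0.95 or more. Sync, like Gja1, was lowest in saline 3 and highest in saline 1 and 2, and Lrrc2, like Dsp, was lowest in ISO 3 (20.7 FPKM) and highest in ISO 1 (45.6 FPKM).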

How the data were processed

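The authors deposited FPKM values, which correct for gene length and library size, in 1 column per library, matched to its sample by library name. The build GRCm38 and the tools HISAT2 2.1.0, HTSeq 0.7.2, Cufflinks 2.2.1, fastp 0.20.0, CASAVA 1.8 and DESeq are named, with no role or order, in the submitters' processing notes. The annotation release and strand setting are not given in the sources used here.

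The tested value was log2(FPKM + 1), for 12269 genes that averaged at least 1 FPKM. R 4.3.3 and limma 3.58.1 fitted group alone, with the prior variance following mean level, and p-values were adjusted by Benjamini-Hochberg over all of these genes. Fold changes on this scale understate those of low genes. Whole reads could be recovered, because low FPKM are multiples of the value of 1 read: all 16816 genes above 0 in 2 or more libraries gave reads within 0.0001 of a whole number, with gene lengths within 0.01 of whole bases. They summed to 9862363, 6307039 and 2776152 in saline 1 to 3 and to 7378782, 5154283 and 5614336 in ISO 1 to 3. Intervals of 95% for single values are exact Poisson intervals and cover counting error only.

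The 10 genes and all lists were chosen with earlier results of these data known. Named genes are the 10 members, up to 4 genes of each pathway list by smallest p, the genes Tjp1, Vcl, Ctnnb1, Nrap and Xirp1, and the 3 genes most like Gja1, Gja5 and Dsp. Some genes under this rule are not reported here. Pkp1 and single cell type markers were chosen after their values were seen. Same-numbered libraries were not paired: their deviations from the group means correlated at 0.0129, -0.148 and -0.0255. Ratios used exact two-sided permutation tests. Alternatives were each library left out, pseudocounts of 0.1 and 5, other filters and scalings, a replicate block, limma-voom on recovered reads and sample quality weights. The recovery and the limma step were tested on simulated data. Positions and upstream sequences are from RefSeq on GRCm38.p6, and exon overlaps from GENCODE M21. Other steps used scipy 1.17.1, pandas 2.3.3 and numpy 2.4.6 under Python 3.11.15.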

Additional observations from a re-analysis of the deposited data

How the results depend on the processing

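The count of junction genes past the threshold was 0 in all 16 alternative fits; a filter at a mean of 5 FPKM left out Cdh2 and Ctnna3. Over all genes it was 0 except with sample quality weights (768 genes) and without ISO 1, so leaving out 1 library gave 0 to 16. The median log2 fold change of the 10 genes ran from -0.27 to 0.21 when 1 library was left out.

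Several signs turned. Under median-of-ratios scaling Dsp was at -0.13 and Dsc2 at -0.054, and under quantile normalization at -0.084 and -0.098. Rescaled to a common sum, Cdh2 was at 0.027. With quality weights Gjc1 was at -0.11, Dsc2 at -0.39 and Cdh2 at 0.23. With 1 library left out the log2 fold change ran from -0.68 to 0.29 for Gja5, -0.029 to 0.63 for Gjc1, -0.22 to 0.65 for Dsp, -0.71 to 0.20 for Dsg2, -0.60 to 0.62 for Dsc2 and -0.24 to 0.23 for Cdh2. Gja1, Pkp2, Jup and Ctnna3 stayed below 0 in every fit run.

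Relative to the heart muscle reference, leaving out 1 library gave -0.024 to 0.66 for Gja1, -0.11 to 0.80 for Gja5, -0.14 to 0.79 for Dsg2, -0.023 to 1.24 for Dsc2 and -0.69 to 0.33 for Ctnna3. Among the ratios it gave -0.14 to 0.44 for Gja5 to Gja1, -0.095 to 0.86 for Dsp to Gja1 and -0.71 to 0.033 for Pkp2 to Dsp. The pathway medians that moved beyond the spread were connexin partners under median-of-ratios scaling (0.10) and disc ion channels with quality weights (-0.37). The cause was not tested.

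The libraries share only a number, and a replicate block called 0 genes; it left each fold change as it was and changed no call. For the ratio of Gjc1 to Gja1 the paired difference was 0.56 (exact sign-flip permutation p = 0.25, the smallest that 3 pairs can give). Depth limits Ctnna3 (23 reads in ISO 2) and Gjc1 (36 reads in saline 3) most.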
